A study of Mus musculus with 8 samples.

Results

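Transcripts of 8 acute phase proteins were followed in the left kidney of 8 mice: the serum amyloid A genes Saa1, Saa2 and Saa3, haptoglobin (Hp), hemopexin (Hpx), orosomucoid 1 (Orm1), lipopolysaccharide binding protein (Lbp) and ceruloplasmin (Cp). The genes were chosen by name, and 12 probes of the array carry 1 of these names, 5 of them for Cp and 1 for each of the other genes. These genes and the lists set beside them were chosen with earlier results of these data known, so counts of calls among them are descriptions. Of the 8 genes 7 could be tested, among 21264 tested genes, since the Hpx probe was well above background on none of the arrays. RNA levels were read on 1-colour arrays, 1 per mouse, in 4 groups of 2 mice, each mouse called by its group and label number. Sham mice (1 and 4) had a midline incision and no injection. IRI mice (30 and 34) had ischaemia-reperfusion injury: after removal of the right kidney, the left renal vessels were clamped for 45 min and released. Control-miRNA mice (1 and 5) and mimic mice (6 and 7) had the same surgery, and 2 days earlier had received small RNA into the tail vein (5 nmol in 200 µl) on nanoparticles of polyethylenimine. Mimic mice received a miR-5100 mimic, control-miRNA mice an miRNA used as control. All kidneys were taken at 24 h. The sham mice kept both kidneys, so removal of the right kidney and clamping of the left cannot be told apart, and every injected mouse was also injured.

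Acute phase proteins are plasma proteins whose concentration changes during inflammation, and most are made by hepatocytes under the control of interleukin 6 and interleukin 1. Interleukin 6 type cytokines act through gp130 and STAT3, and interleukin 1 acts through NF-kB, with C/EBP factors binding many of the responding promoters. Several of these proteins bind something that injury sets free: haptoglobin binds hemoglobin, hemopexin binds heme, and ceruloplasmin carries copper and oxidises iron. Injured tubular epithelium can itself transcribe some acute phase genes.

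Promoter sequences are shown for the 3 serum amyloid A genes. Among the 6 injured mice Saa1 and Saa2 moved together and Saa3 did not follow them. Whether promoter sequence has a part in this was not tested. RefSeq promoters of build GRCm38.p6 were matched for 5 of the 8 genes (Saa1, Saa2, Saa3, Hpx and Cp). The 250 bases before the start of each serum amyloid A gene follow, 5′ to 3′ in the direction of transcription. Capitals mark matches, on either strand, to the NF-kB letters (GGG, any 5 bases, CC) or the C/EBP letters TTNNGNAA.
Saa1, chr7:46742981-46743230, minus strand: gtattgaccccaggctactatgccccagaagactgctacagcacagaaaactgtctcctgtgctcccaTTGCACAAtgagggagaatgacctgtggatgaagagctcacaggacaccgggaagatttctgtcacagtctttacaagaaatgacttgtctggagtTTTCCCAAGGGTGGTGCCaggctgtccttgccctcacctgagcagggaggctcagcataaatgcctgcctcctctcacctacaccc
Saa2, chr7:46751583-46751832, plus strand: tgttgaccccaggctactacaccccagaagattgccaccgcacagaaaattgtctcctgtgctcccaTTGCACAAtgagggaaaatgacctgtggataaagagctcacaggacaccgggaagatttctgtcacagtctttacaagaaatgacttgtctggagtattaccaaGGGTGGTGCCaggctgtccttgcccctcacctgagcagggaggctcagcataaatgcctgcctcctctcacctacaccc
Saa3, chr7:46715677-46715926, minus strand: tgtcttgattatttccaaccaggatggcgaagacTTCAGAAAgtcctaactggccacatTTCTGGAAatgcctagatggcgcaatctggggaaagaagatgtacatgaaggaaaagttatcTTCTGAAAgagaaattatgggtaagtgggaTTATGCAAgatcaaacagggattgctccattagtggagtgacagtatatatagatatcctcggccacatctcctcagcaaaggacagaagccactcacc

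The Saa1 and Saa2 windows were identical at 238 of 251 aligned columns (94.8%), while the Saa3 window shared 52.2% of its aligned columns with Saa1 and 52.4% with Saa2. The Saa1 window holds the NF-kB letters once, 78 to 69 bases before the start, and the C/EBP letters at 2 places, 1 of them directly beside the NF-kB match, which makes 1 longer run of capitals. Saa2 holds the same NF-kB match, 79 to 70 bases before its start, and 1 C/EBP match. Saa3 holds 4 C/EBP matches and no match to the NF-kB letters. Such matches are common: of 32851 promoter windows of the same length 45.8% hold the NF-kB letters and 36.8% the C/EBP letters. The STAT letters TTCNNNGAA, which 7.0% of windows hold, the acute phase element CTGGGAA (9.1%) and the TATA box letters TATAAA (12.4%) were in none of the 3.

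The array read each transcript with a probe of 60 bases, placed by the files on build mm9. The probes of Saa1, Saa3 and Orm1 are shown because they define what the values below count.
Saa1 probe, chr7:53996070-53996129, minus strand: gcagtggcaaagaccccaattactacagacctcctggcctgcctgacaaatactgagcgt
Saa3 probe, chr7:53967559-53967618, minus strand: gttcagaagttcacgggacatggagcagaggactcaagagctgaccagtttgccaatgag
Orm1 probe, chr4:63007395-63009038 (60 bases over a span of 1644), plus strand: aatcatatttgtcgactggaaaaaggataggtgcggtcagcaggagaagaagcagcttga
The files list transcripts of Orm1 and of its neighbour Orm2 for the Orm1 probe, so its signal cannot be given to 1 of these genes. The Saa1 and Saa2 probes list transcripts of their own gene only. Whether RNA of 1 of these closely related genes also binds the other's probe was not tested.

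Most of the acute phase transcripts were higher after injury than in sham mice. A level is the processed signal on the log2 scale after subtraction of the array's 75th percentile, so that a level of 0 lies at that percentile, and a gene is called where the limma p-value, adjusted by Benjamini-Hochberg over all tested genes, is under 0.05. In IRI mice 6 of the 7 tested genes were called higher than in sham mice (Saa1, Saa2, Saa3, Hp, Orm1 and Cp), where 9.47% of all tested genes were called higher. In control-miRNA mice 4 of 7 were called higher than sham (Saa3, Hp, Orm1 and Cp), beside 9.49% of all genes, and in mimic mice the same 4, beside 14.9%. None was called lower. Saa3 and Orm1 were not well above background in either sham mouse and entered the test only through the injured groups in which they were high, so they had to differ. Of the other 5 genes, 4 were called higher in IRI mice (Saa1, Saa2, Hp and Cp) and 2 in each injected group (Hp and Cp). Among these 5, Saa2 was well above background in sham 4 but not in sham 1. So Saa2 too entered the test only through injured groups, while Saa1, Hp and Cp were well above background in both sham mice. The median log2 difference of the 7 genes from sham was 2.43 for IRI mice, 2.42 for control-miRNA mice and 2.34 for mimic mice, values that for IRI and control-miRNA mice are those of Orm1. With Saa3 and Orm1 at their lower bounds it was 2.08, 1.99 and 2.1, and the median of all tested genes was -0.08, -0.05 and 0.1. These 3 comparisons share the sham mice, so they are not independent of each other. In whole kidney, a change in the number of cells of a type and a change of RNA per cell cannot be told apart.

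**Figure D1:**
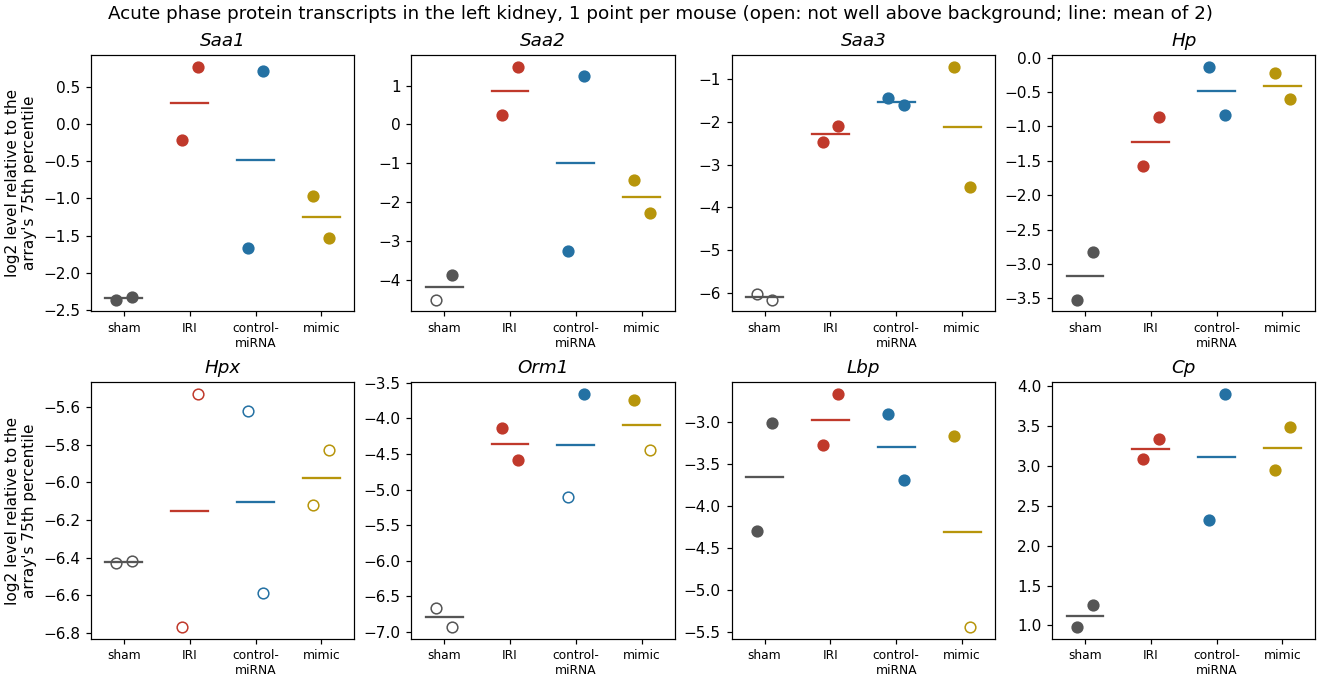
Log2 level (vertical axis, array 75th percentile at 0) of the 8 transcripts by group, with 1 point per mouse, open points for signals not well above background and a line at the mean of 2 mice. Each panel has its own scale. All 6 injured mice lie above both sham mice for Saa1, Saa2, Saa3, Hp, Orm1 and Cp, the groups overlap for Lbp, and every Hpx point is open.

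With 2 mice a group the calls rest on few animals, and each mouse left out also changes the spread that all groups share. The count in IRI against sham went from 6 to 0 without sham 1, to 1 without sham 4, to 1 without IRI 30, to 0 without IRI 34 and to 4 without either mimic mouse, and was 6 without either control-miRNA mouse. In control-miRNA against sham the count went from 4 to 0 without sham 1, to 1 without sham 4, to 3 without either IRI mouse, to 5 without control-miRNA 1 and to 3 without control-miRNA 5, and was 4 without either mimic mouse. In mimic against sham it went from 4 to 2 without sham 1, to 1 without sham 4, to 3 without mimic 7 and to 5 without either control-miRNA mouse, and was 4 without mimic 6 or either IRI mouse. The 6 genes lay above sham in all of these fits, which had to be so because every injured mouse lay above both sham mice. Calls over all genes moved with single mice in both directions. In IRI against sham they were 2013 higher and 1874 lower with all mice, and in all 799 to 1076 without a sham or IRI mouse, 3389 without either control-miRNA mouse and 5939 without either mimic mouse. In mimic against sham they were 3173 higher and 2764 lower with all mice, and in all 1098 without sham 4 and 7292 without mimic 6, with the other mice between. In control-miRNA against sham they were 2018 higher and 1673 lower, and in all 696 without sham 1 and 5699 without either mimic mouse, with the others between.

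Array brightness moved with the groups, the mimic arrays being the dimmest. With it as a covariate, Hp was called in all 3 comparisons with sham (adjusted p = 0.0233, 0.00353 and 0.038 for IRI, control-miRNA and mimic mice). In IRI mice the calls of Saa1 (2.69, adjusted p = 0.138), Saa2 (5.33, 0.114), Saa3 (2.99, 0.0741) and Cp (2.42, 0.0575) were lost, and Orm1 was at the threshold (2.69, 0.0499). In mimic mice those of Saa3 (6.09, adjusted p = 0.0949), Orm1 (2.05, 0.292) and Cp (1.22, 0.503) were lost. In control-miRNA mice the 4 calls held.

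Saa1 and Saa2 encode the circulating serum amyloid A proteins, apolipoproteins of high-density lipoprotein that in the liver are among the most inducible genes of the acute phase. The Saa1 level was -2.36 in sham 1 and -2.32 in sham 4, -0.21 in IRI 30 and 0.77 in IRI 34, -1.67 in control-miRNA 1 and 0.71 in control-miRNA 5, and -0.97 in mimic 6 and -1.53 in mimic 7. The sham pair was the lowest and nearly equal, and the control-miRNA pair spanned most of the injured range. Saa1 was called higher in IRI than in sham mice, by 2.61 ± 0.73 (SE; limma adjusted p = 0.0498), and not in control-miRNA (1.85 ± 0.73, adjusted p = 0.126) or mimic mice (1.08 ± 0.73, adjusted p = 0.291).

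The Saa2 level was -4.51 in sham 1, where the probe was not well above background, and -3.88 in sham 4. It was 0.25 in IRI 30 and 1.49 in IRI 34, -3.26 in control-miRNA 1 and 1.26 in control-miRNA 5, and -1.43 in mimic 6 and -2.28 in mimic 7. The IRI mice and control-miRNA 5 stood high, the mimic mice between, and control-miRNA 1 close to sham. Saa2 was called higher in IRI mice, by 5.07 ± 1.31 (adjusted p = 0.0405), the largest log2 difference among the 7 genes in that comparison, and not in control-miRNA (3.2 ± 1.31, adjusted p = 0.139) or mimic mice (2.34 ± 1.31, adjusted p = 0.212). The error is pooled over all groups, and the control-miRNA pair had the widest gap: with only sham and IRI arrays in the fit the SE of Saa2 was 0.47 and the adjusted p 0.00418. Fits of only the 2 groups compared moved calls both ways: Saa2 was called in mimic mice (adjusted p = 0.0302) and not in control-miRNA mice (0.199), while Saa3 in mimic mice (0.0545) and Cp in control-miRNA mice (0.0698) lost their calls.

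The 2 control-miRNA mice differed 23-fold in Saa2, a gap exceeded by 0.0047% of the tested genes in that pair, and 5.21-fold in Saa1 (exceeded by 0.47%). Cp and Orm1 were also higher in control-miRNA 5 than in control-miRNA 1, by 3-fold and 2.71-fold. Saa3, Hp and Lbp were not: they were higher in control-miRNA 1. The summed linear level of the 16 hepatocyte markers, in units of the array's 75th percentile, was 25.8 in control-miRNA 1 and 189 in control-miRNA 5. The 3 Serpina1 genes made up 58.1% to 88.2% of this sum over the arrays. The sum was highest in sham 1 (224) and sham 4 (220), which had the lowest Saa2. The part of these markers in the gap was not tested. Without control-miRNA 1, Saa1 and Saa2 were called in control-miRNA against sham as well (3.04, adjusted p = 0.0244, and 5.46, adjusted p = 0.0139). Without either control-miRNA mouse Saa2 was called in mimic against sham (adjusted p = 0.0254).

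Saa3 encodes a serum amyloid A protein that is made mostly outside the liver, by macrophages, adipocytes and epithelia. The Saa3 probe was not well above background in either sham mouse, at levels of -6.03 and -6.16. The level was -2.47 in IRI 30 and -2.1 in IRI 34, -1.43 in control-miRNA 1 and -1.61 in control-miRNA 5, and -0.7 in mimic 6 and -3.52 in mimic 7. All injured mice stood well apart from sham, and the mimic pair held both the highest and the lowest injured value. Against the lowest signal well above background on the sham arrays, Saa3 was at least 5.23-fold higher in IRI, at least 8.89-fold in control-miRNA and at least 5.92-fold in mimic mice. The measured log2 differences were 3.81, 4.57 and 3.99 (limma adjusted p = 0.0202, 0.0126 and 0.0138). The p-values belong to these differences and not to the bounds. With normexp background correction the IRI difference was 1.01 and was not called (adjusted p = 0.0615).

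Among the 6 injured kidneys Saa1 followed Saa2 (r = 0.99), while Saa3 had r = 0.09 with Saa1 and 0.01 with Saa2. Over all 8 kidneys, which include the step from sham to injury, r was 0.99 for Saa1 with Saa2, 0.66 for Saa1 with Saa3 and 0.65 for Saa2 with Saa3. These r are descriptions over arrays that share 1 slide, with no test. Control-miRNA 1, for example, had the lowest Saa1 and Saa2 of the injured mice and the second highest Saa3. Mimic 7 had the lowest Saa3.

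**Figure D2:**
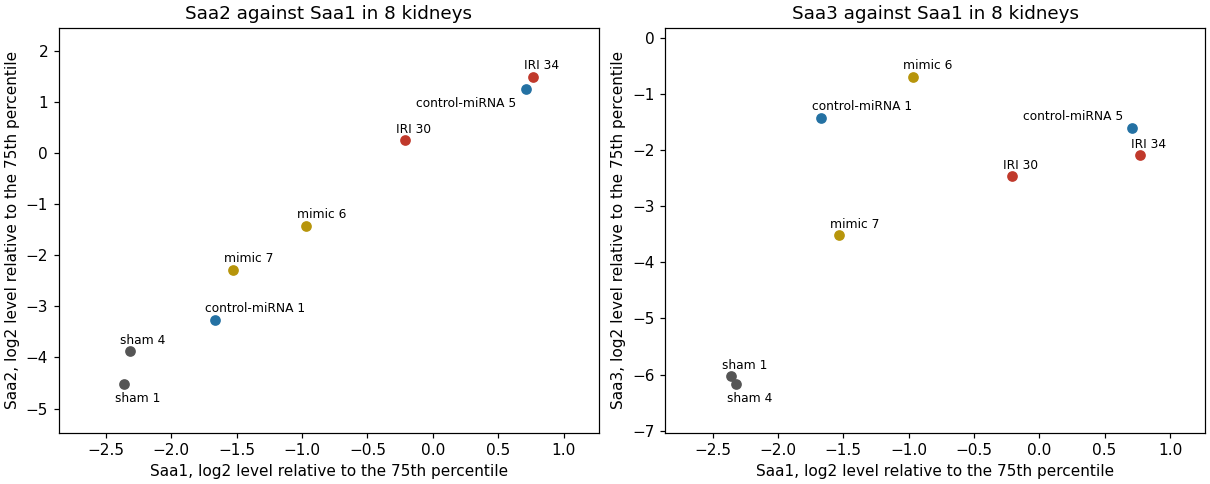
Saa2 (left) and Saa3 (right) against Saa1, as log2 levels with the array 75th percentile at 0 and 1 labelled point per mouse. In the left panel the 8 mice lie along 1 line from sham 1 to IRI 34. In the right panel the 6 injured mice show no such order, and control-miRNA 1 lies high for Saa3 and low for Saa1.

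Haptoglobin, which captures hemoglobin for uptake through CD163, was well above background in all 8 kidneys. The Hp level was -3.52 in sham 1 and -2.82 in sham 4, -1.57 in IRI 30 and -0.87 in IRI 34, -0.13 in control-miRNA 1 and -0.84 in control-miRNA 5, and -0.22 in mimic 6 and -0.6 in mimic 7. Every injured mouse was higher than both sham mice, and both injected groups lay above both IRI mice. Hp rose 3.86-fold in IRI (log2 difference 1.95 ± 0.37, adjusted p = 0.0166), 6.44-fold in control-miRNA (2.69 ± 0.37, adjusted p = 0.00638) and 6.78-fold in mimic mice (2.76 ± 0.37, adjusted p = 0.00463). The differences of the injected groups from IRI, 0.74 and 0.81, were not called (adjusted p = 0.999 and 0.153).

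Hemopexin captures free heme. Its probe ranged from -6.77 to -5.53 over the 8 arrays and was well above background on none, so no group difference is given.

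Orosomucoid 1, also called alpha-1 acid glycoprotein, is a carrier of lipophilic molecules in plasma. The Orm1 level was -6.66 in sham 1 and -6.93 in sham 4, both not well above background, -4.14 in IRI 30 and -4.59 in IRI 34, -5.1 (not well above background) in control-miRNA 1 and -3.66 in control-miRNA 5, and -3.74 in mimic 6 and -4.45 (not well above background) in mimic 7. The injured values lie near the lowest signals that count as well above background, which ranged from -5.17 to -3.9 over the arrays. Orm1 was at least 1.24-fold higher than sham in IRI, at least 1.23-fold in control-miRNA and at least 1.5-fold in mimic mice. The measured log2 differences were 2.43, 2.42 and 2.71 (limma adjusted p = 0.0178, 0.0194 and 0.01). These p-values belong to the measured differences and not to the bounds, which were not tested. With normexp the difference was 0.14 in IRI (adjusted p = 0.654) and 0.3 in control-miRNA mice (adjusted p = 0.371), both no longer called, and 0.83 in mimic mice (adjusted p = 0.0183).

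Lipopolysaccharide binding protein hands bacterial lipopolysaccharide to CD14. The Lbp level was -4.3 in sham 1 and -3.01 in sham 4, -3.28 in IRI 30 and -2.67 in IRI 34, -2.91 in control-miRNA 1 and -3.69 in control-miRNA 5, and -3.17 in mimic 6 and -5.44 (not well above background) in mimic 7. The groups overlapped. Its differences from sham were 0.68 (95% confidence interval -1.14 to 2.5) for IRI mice, 0.35 (-1.47 to 2.18) for control-miRNA mice and -0.65 (-2.48 to 1.17) for mimic mice, none called. Lbp was the gene that moved most with array brightness (r = 0.8 over 8 arrays, as a description). With brightness as a covariate its difference from sham was -0.41 for IRI, 0.12 for control-miRNA and 2.14 for mimic mice, none called (adjusted p = 0.625, 0.849 and 0.208). Mimic 7, with the lowest Lbp, was the dimmest array.

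**Figure D3:**
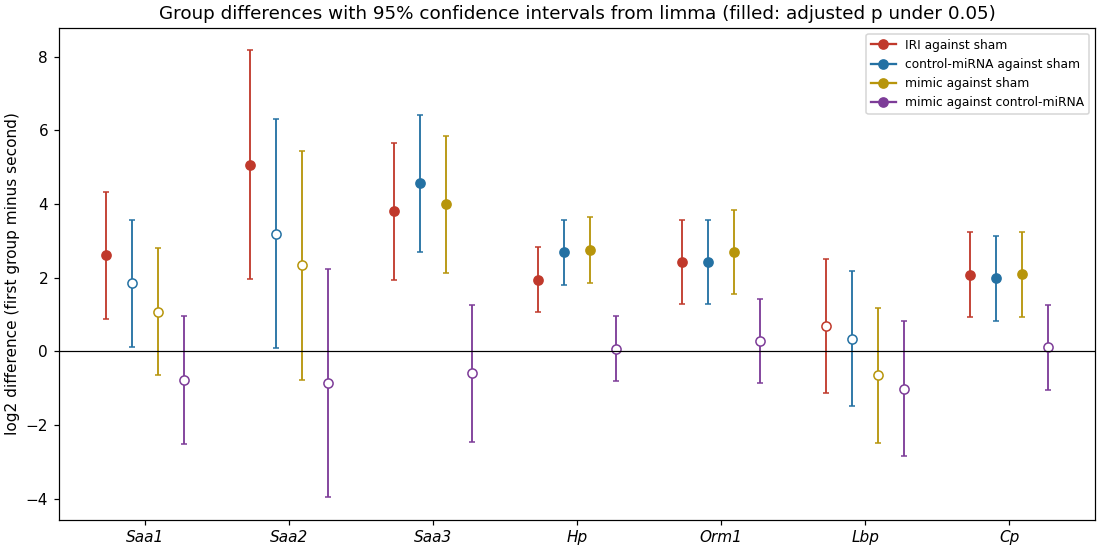
Log2 differences (vertical axis, first group minus second) of the 7 tested genes in the 3 comparisons with sham and in mimic against control-miRNA mice, with 95% confidence intervals from limma and filled points where the adjusted p is under 0.05. All points of Saa3, Hp, Orm1 and Cp against sham are filled, and in mimic against control-miRNA every interval includes 0.

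Ceruloplasmin, the copper-carrying ferroxidase, had 5 probes on the array, which disagreed. The brightest probe, designed on the transcript NM_007752 at chr3:19889071-19889130 (mm9), stood for the gene. Its level was 0.98 in sham 1 and 1.26 in sham 4, 3.08 in IRI 30 and 3.33 in IRI 34, 2.32 in control-miRNA 1 and 3.9 in control-miRNA 5, and 2.95 in mimic 6 and 3.49 in mimic 7. All injured mice were higher than both sham mice. By this probe Cp rose 4.23-fold in IRI (2.08 ± 0.49, adjusted p = 0.0303), 3.97-fold in control-miRNA (1.99 ± 0.49, adjusted p = 0.0359) and 4.28-fold in mimic mice (2.1 ± 0.49, adjusted p = 0.0227). With the mean of the 5 probes in its place the differences were 0.66, 0.64 and 0.85, none called (adjusted p = 0.188, 0.2 and 0.0833).

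The other Cp probes were compared in the fit over all probes, which called 15.2% of probes for IRI mice, 14.3% for control-miRNA mice and 28% for mimic mice, each against sham and in either direction. A probe listed for 3 Cp transcripts (chr3:19874934-19874993) differed from sham by 1.3, 1.25 and 1.82, and was called in mimic mice (adjusted p = 0.0165) but not in IRI (0.063) or control-miRNA mice (0.0733). The probe on ENSMUST00000128615 differed by 0.89, 0.94 and 1.44 and was called in mimic mice (adjusted p = 0.0391). The probe on NM_001276248 differed by -0.04, -0.18 and -0.22 and was called in none. The probe on NM_001276250 (chr3:19909387-19909446), the last of the 5 along the gene, went the other way: it differed by -0.95, -0.77 and -0.91, was called lower in mimic mice (adjusted p = 0.0438), and missed the threshold in IRI (0.0559) and control-miRNA mice (0.1).

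Within each array, the log2 ratio of the NM_007752 probe over the NM_001276250 probe was 2.65 and 2.71 in the sham mice and 4.73 to 6.15 in the 6 injured mice. The means differed by 2.93 (2.68 ± 0.04, SD, n = 2, and 5.61 ± 0.55, SD, n = 6). The pair of probes was chosen because they moved in opposite directions, so these values are a description with no test, and they give no amount of either transcript.

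**Figure D4:**
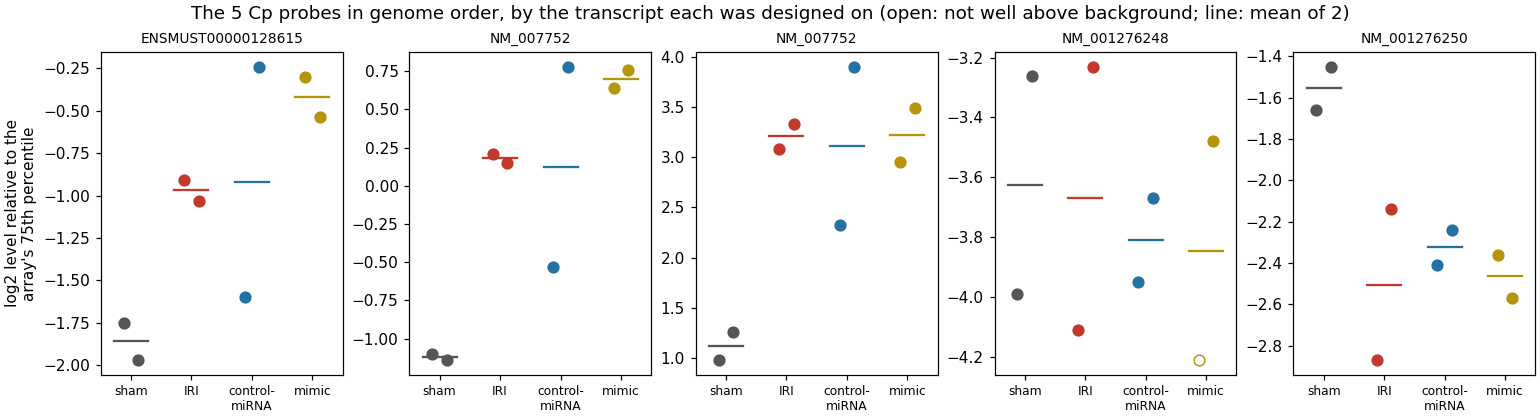
Log2 level (vertical axis, array 75th percentile at 0, a separate scale for each panel) of the 5 Cp probes in genome order, titled by the transcript each was designed on, with 1 point per mouse and a line at the mean of 2. In the first 3 panels all injured mice lie above both sham mice, in the panel of NM_001276248 the groups overlap, and in that of NM_001276250 all injured mice lie below both sham mice.

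The mimic of miR-5100 was compared with the control miRNA in mice with the same injury and the same carrier. None of the 7 genes was called, limma called 0% of all tested genes, and 7180 genes, none of these 7, had an unadjusted p under 0.05. The mimic minus control difference was -0.77 (95% confidence interval -2.5 to 0.96) for Saa1, -0.86 (-3.96 to 2.25) for Saa2, -0.59 (-2.45 to 1.27) for Saa3, 0.08 (-0.81 to 0.96) for Hp, 0.28 (-0.85 to 1.42) for Orm1, -1.01 (-2.83 to 0.82) for Lbp and 0.11 (-1.05 to 1.26) for Cp. The Hp interval is the narrowest and the Saa2 interval the widest. Without mimic 6, which leaves mimic 7 alone, Saa3 was called lower (-1.99, adjusted p = 0.0109), and the calls over all genes went from 0 to 6318; the lone mouse is then assumed to vary like the other groups.

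Against IRI mice, none of the 7 genes was called in mimic mice, where 15.4% of all genes were, and 0 of the 7 had an unadjusted p under 0.05. That share rests on single arrays: it came to 7514 genes without mimic 6 and to 0 genes without any one of the other mice. The 2 mimic mice lay below both IRI mice in Saa1 (difference -1.53, 95% confidence interval -3.26 to 0.19, adjusted p = 0.162) and Saa2 (-2.73, -5.84 to 0.38, adjusted p = 0.166). Without mimic 6 Saa3 (-1.23, adjusted p = 0.0141) and Lbp (-2.47, adjusted p = 0.0317) were called lower, and with normexp Orm1 was called higher (0.69, adjusted p = 0.0284). In control-miRNA against IRI limma called 0% of all genes and none of the 7, and 864 genes, none of these 7, had an unadjusted p under 0.05. Injected and uninjected groups occupied different rows of the slide, so row and injection cannot be told apart. Slide column went with group as well: each sham or mimic array had column 1 or 2, and each remaining array column 3 or 4. In IRI against sham and in mimic against control-miRNA, column and group therefore cannot be told apart. The same holds for control-miRNA against sham and mimic against IRI, where the row differed too.

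Of 26 other positive acute phase genes 18 were tested, and 11 rose and 2 fell in IRI against sham, where 9.47% of all genes were called higher and 8.81% lower. In control-miRNA mice 12 rose and 2 fell, and in mimic mice 12 rose and 3 fell (7.87% and 13% of all genes were called lower). Lcn2, an iron-siderophore binding protein of injured tubules, rose by 7.75 (216-fold, adjusted p = 0.000909), and the fibrinogen chain Fgb by 7.2 (147-fold, adjusted p = 0.00137). Mt2, a metallothionein, rose by 3.81, and Il1rn, the interleukin 1 receptor antagonist, was at least 11.8-fold higher. Il1rn and Serpina3n were well above background in neither sham mouse and entered the test only through injured mice. Orm2, Crp, Serpina3k, Hamp and Steap4 were well above background on no array. The negative acute phase genes, which fall in liver during inflammation, gave 0 higher and 2 lower of 6 tested in IRI mice: Cyp2e1 (-2.8) and Ttr (-2.1), the plasma carrier of thyroxine. In control-miRNA and in mimic mice 2 were lower and 1 was higher, Rbp4, the plasma carrier of retinol (3.68, adjusted p = 0.0324, and 4.08, adjusted p = 0.0175). The Rbp4 probe was well above background in only 1 sham mouse, at levels of -6.38 in sham 1 and -3.46 in sham 4. It entered the test only through injured mice.

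Of 24 genes of the cytokine pathways that drive acute phase transcription 22 were tested, and 13 rose and 0 fell in IRI mice, beside 9.47% and 8.81% of all genes. Socs3, the feedback inhibitor of gp130 signalling, rose by 4.5, Cebpb by 1.91 and Nfkbiz, a nuclear cofactor of NF-kB, by 2.75, and the tumour necrosis factor receptor Tnfrsf1a rose by 1.79. Il6 was at least 2.47-fold higher. Its probe was well above background in neither sham mouse and entered the test only through injured mice, so it had to differ. Of 18 tested receptors and partners of the 8 proteins, 6 rose and 3 fell, beside the same shares of all genes. Cd14, the partner of Lbp, rose by 4.21, and Hmox1, which degrades heme, by 3.69. Lrp2, the megalin receptor that takes up filtered proteins in the proximal tubule, fell by 1.9, and the iron exporter Slc40a1 rose by 1.34. Cd163, the haptoglobin receptor, was well above background on no array.

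**Figure D5:**
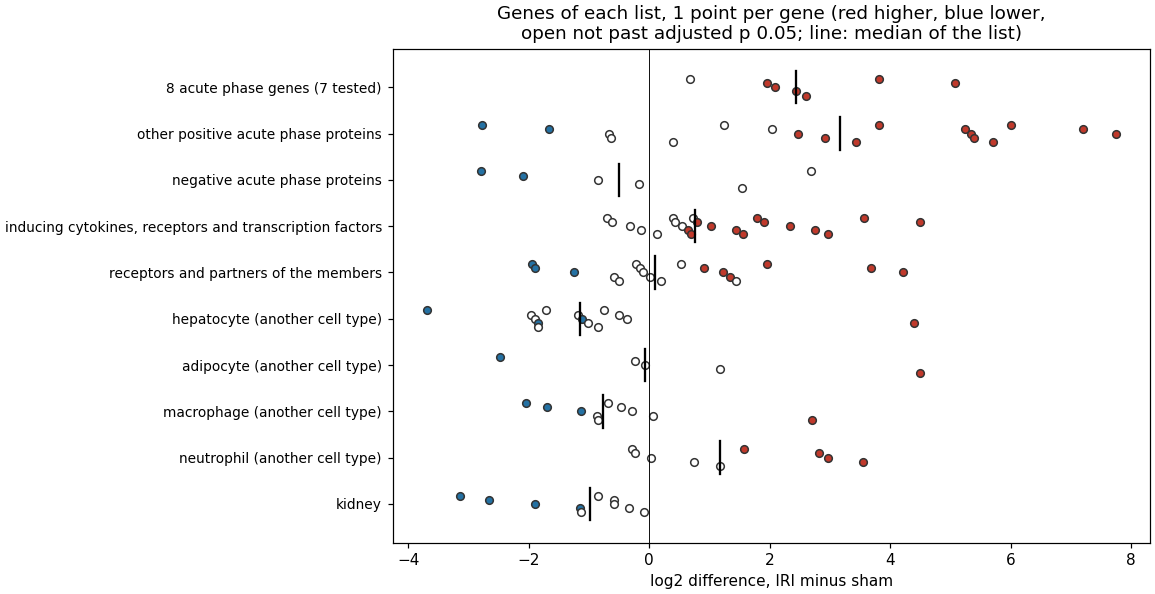
Log2 differences in IRI minus sham (horizontal axis) of the tested genes of each list, 1 point per gene, red if called higher, blue if called lower and open otherwise, with a line at the median of the list. The 7 tested acute phase genes have a median of 2.43 (2.08 with Saa3 and Orm1 at their bounds), other positive acute phase genes 3.17, hepatocyte markers -1.15 and kidney markers -0.99.

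Markers of other cells were read beside these results; their counts stand against 9.47% of all genes higher and 8.81% lower in IRI mice. All 10 kidney markers were well above background on all 8 arrays, and 4 of them fell in IRI mice. Of 16 hepatocyte markers 11 were well above background on all 8 arrays and Ahsg and Cyp3a11 on none, and in IRI mice 1 of 14 tested rose (Fgf21) and 3 fell (Apoa2, Azgp1 and F2). Fgf21 entered the test only through injured mice and F2 only through sham mice. The hepatocyte sum was 220 to 224 in sham, 55.6 to 88 in IRI mice, 25.8 to 189 in control-miRNA and 90.9 to 191 in mimic mice. The 3 Serpina1 genes made up 58.1% to 88.2% of it, and without them it was 31.7 to 34.3 in sham, 15.4 to 17.3 in IRI mice, 10.8 to 29.4 in control-miRNA and 18.4 to 22.5 in mimic mice. Of 12 neutrophil markers 9 were tested and 4 rose in IRI mice (S100a8 by 3.55, S100a9 by 2.96, Retnlg and Cxcr2), and Ltf was well above background on no array. Retnlg and Cxcr2 were well above background in neither sham mouse and entered the test only through injured mice. The neutrophil sum was 47.1 to 52.7 in sham, 46.7 to 52.8 in IRI mice, 51.9 to 65.5 in control-miRNA and 76.5 to 101 in mimic mice. Csf3r alone made up 74.2% to 93.9% of it. Without Csf3r the sum was higher in every injured mouse than in sham, at 3.1 to 3.22 in sham, 8.04 to 11.4 in IRI mice, 13.4 to 16.7 in control-miRNA and 6.23 to 11.3 in mimic mice. Of 10 macrophage markers 1 rose (Cd68, by 2.7) and 3 fell in IRI mice (Csf1r, Itgam and Adgre1). Each of these falls was read on the brighter of 2 probes. The dimmer probes of Itgam and Adgre1 were well above background on no array. That of Csf1r was at -0.53 and -0.72 in sham and at -0.76 and -1.18 in IRI mice. The macrophage sum was 40 to 54.6 in sham, 21 to 21.2 in IRI mice, 26.6 to 29.9 in control-miRNA and 49.1 to 78.5 in mimic mice (without Itgam, which made up 22.4% to 70% of it, 19.8 to 24.8, 14 to 16.1, 16 to 23.2 and 23.5 to 28). Of 9 adipocyte markers 5 were tested, 1 rose and 1 fell, Adipoq was well above background on no array, and the sum was 27.4 to 43.5 in sham, 12.2 to 13.4 in IRI mice, 17.1 to 18.7 in control-miRNA and 15.4 to 16.1 in mimic mice. Lpl made up 24.4% to 87.6% of that sum, and without it sham mice were the lowest, at 5.41 to 6.46 in sham, 7.28 to 8.14 in IRI mice, 10 to 11.7 in control-miRNA and 11.4 to 12.2 in mimic mice. The genes left out of these sums were chosen after the values were seen. The part of hepatocytes, neutrophils, macrophages and adipocytes in the acute phase results was not tested.

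The genes whose level most resembled the mean of the 7 genes over the 8 arrays, each scaled to its own mean and SD, were Map3k14 (r = 0.996), Tlr2 (0.977), Grwd1 (0.976), Tgm2 (0.975), Ranbp1 (0.974), Fut1 (0.973), Tmbim1 (0.973) and Sf3b5 (0.972). These r include the step from sham to injury. Over the 6 injured arrays alone the closest were Chadl (0.986), Stamos (0.974), Prkab2 (0.973), Rims2 (0.967), Retreg2 (0.956), Olfr39 (0.954), Map3k14 (0.954) and Rbm19 (0.952). Map3k14 is in both lists. Likeness over the injured arrays alone is not a rise with injury. In IRI against sham Chadl (-1.14), Stamos (-2.03) and Retreg2 (-0.64) were called lower and Map3k14 (0.75) higher. Prkab2 (0.47), Rims2 (0.02), Olfr39 (-0.72) and Rbm19 (0.54) were not called. The mean does not stand for all 7 genes alike: r with it was 0.337 for Lbp over 8 arrays and -0.13 for Hp over the 6 injured arrays. Of the genes closest over the 6 injured arrays, Stamos was well above background on 5 of them, Rims2 on 4 and Olfr39 on 2; over all 8 arrays Fut1 was on 6. These r were picked as the highest of all named genes and carry no test.

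All arrays lay on 1 slide with 1 scan time. Brightness, as the 75th percentile of signal, came to 239.2 and 305.2 for the mimic arrays and 400.8 to 588.5 for the others, 53.2% to 58.8% of spots were well above background, and 0 were saturated. Precision is limited by the number of arrays.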

How the data were processed

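RNA from 30 mg of left kidney was labelled with Cy3 from 50 ng and hybridised to 1 Agilent array per mouse, per the labels' protocols. Per the submitters' processing notes the authors extracted spot intensity with Agilent Feature Extraction (version 12.0.3.1), and per the file headers the background was already subtracted. The deposited series table holds a ratio per probe, with each probe divided by its median over the arrays from its values; how arrays were scaled is not stated in those sources, and it served only as an alternative. The median deposited ratio of an array was 0.992 to 1.02. The files' other columns are quality flags.

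Here control and outlier spots were dropped, the log2 of the intensity minus the array's 75th percentile was taken, and a probe was kept where both arrays of 1 or more groups were well above background (32218 of 56605). RefSeq accessions named 33767 probes, current symbols 9866 and older symbols 310; for 12662 the file's own name was used. The brightest probe stood for its gene. Group means were fitted with limma 3.58.1 in R 4.3.3 on all 8 arrays, which share 1 spread (6.84 degrees of freedom after moderation), with Benjamini-Hochberg adjustment over 21264 genes. The labels number the mice separately and do not say more about how they were kept, so p-values measure the spread between these samples. A bound, "at least N-fold", sets the brighter group against, on each dim array, the higher of the probe's own signal and the lowest signal well above background. Named are the 8 genes, up to 4 genes of each list by p in IRI against sham, and 8 genes most like them in level; Il6 and Rbp4 were named after their values were seen. The 8 genes and the lists were chosen with earlier results of these data known. The fit was tested on simulated data. Alternatives were normexp (offset 50), quantile normalization, other probe filters, the mean of probes, the deposited ratios, fits of 2 groups, brightness or slide column as covariates, and leaving out each mouse.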

Additional observations from a re-analysis of the deposited data

How the results depend on the processing

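Against sham, the 6 genes Saa1, Saa2, Saa3, Hp, Orm1 and Cp kept their direction in 297 of 297 values under the alternatives. Many of these values could not have turned, so the count is a description. Every injured mouse lay above both sham mice for these genes, so leaving out a mouse could not change the direction. Fits of 2 groups or with slide column as a covariate left the differences as they were. The column covariate could not separate group from columns 1 and 2 against columns 3 and 4, since each group lay wholly on 1 side. The calls of the 6 genes were less stable. For the cases below the cause was not tested, except that leaving out a mouse or keeping fewer probes changes what is fitted. The count of called genes in IRI against sham was 6. It went to 5 with quantile normalization, the mean of probes or the deposited ratios, and to 4 with normexp. It was 3 with no filter on dim probes and 3 (of 3 tested) with only probes above background on all 8 arrays. With array brightness as a covariate it was 2, and leaving out a mouse changed it as given above. Saa1 lost its call with quantile normalization (limma adjusted p = 0.0509) and with the deposited ratios (0.0516). In control-miRNA against sham the count of 4 went to 3 with normexp, no filter, the mean of probes or fits of 2 groups. It went to 2 (of 3 tested) with the stricter filter, and also moved without a mouse. In mimic against sham it went from 4 to 3 with the mean of probes, to 2 (of 3) with the stricter filter and to 1 with brightness. It moved without a mouse here too. In mimic against control-miRNA the count of 0 went to 0 to 1 without a mouse, and in mimic against IRI to 1 with normexp and to 0 to 2 without a mouse.

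Of 690 single-gene values under the alternatives 47 changed sign, each for a difference not called with all mice and the main settings; Saa3 in mimic against IRI was called with its turned sign without mimic 6 (-1.23, adjusted p = 0.0141). With normexp, Lbp was 0.28 in mimic against sham, 0.18 in mimic against control-miRNA and 0.14 in mimic against IRI, Saa3 was 0.04 in mimic against control-miRNA, Cp was -0.1 in mimic against IRI and Orm1 was 0.16 in control-miRNA against IRI. With quantile normalization Orm1 was -0.06 in mimic against control-miRNA and -0.19 in mimic against IRI, and Saa3 was -0.12 in mimic against IRI; the deposited ratios gave -0.07, -0.19 and -0.11. With array brightness as a covariate, Lbp was -0.41 in IRI against sham, 2.14 in mimic against sham, 2.01 in mimic against control-miRNA, 2.55 in mimic against IRI and 0.54 in control-miRNA against IRI. The same covariate gave 1.69 for Saa3, -0.43 for Orm1 and -0.84 for Cp in mimic against control-miRNA, and -0.65 for Orm1 and -1.2 for Cp in mimic against IRI.

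Without a mouse, Lbp ranged from -0.29 to 1 in control-miRNA against sham and from -1.79 to 0.48 in mimic against sham. In mimic against control-miRNA the ranges were -1.96 to 0.42 for Saa1, -3.12 to 1.41 for Saa2, -1.99 to 0.82 for Saa3, -0.28 to 0.43 for Hp, -0.44 to 1 for Orm1, -2.14 to 0.13 for Lbp and -0.68 to 0.9 for Cp, so each of the 7 changed sign. In mimic against IRI they were -1.23 to 1.59 for Saa3, -0.09 to 0.63 for Orm1 and -0.25 to 0.29 for Cp. In control-miRNA against IRI they were -1.95 to 0.43 for Saa1, -4.14 to 0.39 for Saa2, -0.73 to 0.71 for Orm1, -0.72 to 0.07 for Lbp and -0.88 to 0.7 for Cp. A mouse left out leaves its group with 1 array, which is assumed to vary like the other groups. No paired analysis was possible because each array came from a different mouse and the labels link no mice between groups. Signal over background limits Hpx, Orm1, the sham values of Saa3, Saa2 in sham 1 and Lbp in mimic 7. With normexp the Saa2 difference in IRI against sham was 3.18, beside 5.07 with the main settings.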
